A study of Danaus plexippus with 32 samples.

Results

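Transcripts of 3 genes of glutamate and GABA signalling, GOT1 (DPOGS202178), GABAR (DPOGS204494) and EaaT2 (DPOGS202815), were followed in the brain of the monarch butterfly, Danaus plexippus. They were chosen by their gene identifiers, as 3 of the 15130 genes with a value in every library, and all 3 were among the 10412 genes expressed in wild-type brains (at least 3 FPKM, fragments scaled by gene length and library size, in at least 1 wild-type library). The study had picked them as rhythmic in the same wild-type libraries, so that their wild-type time courses are described here without a test. It had also weighed its rhythmic genes by how their time courses differed in the knockouts, so that the knockout libraries too had a part in the choice. Adults had spent at least 7 days in 15 h of light and 9 h of darkness at 25 °C, and time is given as Zeitgeber time (ZT, hours after lights-on). RNA-seq was performed on wild-type brains every 3 h from ZT1 to ZT22, and on brains of Cry2 knockouts and of Clk knockouts every 6 h from ZT4 to ZT22. Each genotype and time had 1 male library (replicate 1) and 1 female library (replicate 2), each a pool of 3 brains dissected free of eye photoreceptors. Sex and replicate number are one split in these 32 libraries and cannot be told apart. The labels name the genotypes but no allele.

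Glutamate is the transmitter of many synapses, and GABA, made from it, inhibits the neurons it reaches. GOT1 encodes a glutamate oxaloacetate transaminase, an enzyme that interconverts glutamate and alpha-ketoglutarate and so links the transmitter pool to energy metabolism. GABAR is named in the study's gene list as a metabotropic GABA-B receptor of subtype 1, one of the G-protein coupled receptors through which GABA acts slowly. EaaT2 belongs to the excitatory amino acid transporters, which carry glutamate and related amino acids out of the extracellular space, in large part into glia; the Drosophila protein of this name carries aspartate and taurine. CRY2 is the transcriptional repressor of the monarch clock, and CLK is a partner in the activator that it represses.

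The libraries held 2848069 to 4456322 reads on genes, as taken from the width of the 95% intervals in the files. One library stood apart in the level of its median gene, a measure that does not show changes in single genes. In the male Clk knockout library of ZT4 the median gene lay 0.35 below its wild-type mean on the log2(FPKM + 1) scale, against shifts of -0.04 to 0.05 in wild-type libraries and -0.15 to -0.02 in Cry2 knockout libraries. Most Clk knockout results of the 3 genes that rest on it are therefore also given without that library or after median-of-ratios scaling between libraries. Others are given as ranges over fits that left out each library in turn. Cry2 RNA (DPOGS208079) was 22.1 to 23.9 FPKM in Cry2 knockout libraries, inside the wild-type range of 18.5 to 34.6 FPKM, so that the RNA level does not check the genotype label. The markers of neurons (cac, VGlut, Nplp1 and fusl) and of glia by their roles in Drosophila (both genes named e, and Mdr65) were above 0 in every library. So were 3 genes of Drosophila vision or eye development (Pdh, ninaB and sev), here called vision genes. They summed to 54.9 to 85.7 FPKM over the 4 times that all genotypes share, and were not tested as marks of retinal tissue. Since whole brains were used, fewer cells of a type and less RNA per cell cannot be told apart.

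GOT1 lies on scaffold DPSCF300162 from 277920 to 285340 of assembly v3, a span of 7420 bases. Its level was above that of 89.6% of expressed genes, and a median of 808.5 reads per library stood behind it, with an interval of 7.03% of the value to either side that covers counting error alone. In wild-type the male libraries gave 96.1, 108.4, 110.4, 95.3, 95.3, 74.2, 73.4 and 89.0 FPKM from ZT1 to ZT22, and the female libraries 91.5, 119.9, 112.2, 103.1, 91.3, 82.1, 77.7 and 107.1 FPKM. The transaminase transcript was thus high in the first part of the light phase and low in the first part of the night in both series. The libraries of ZT4 and ZT7 did not overlap with those of ZT16 and ZT19. These times were picked from the same values, so that the gap is a description. The mean was highest at ZT4 (114.2 ± 8.13 FPKM, SD, n = 2) and lowest at ZT19 (75.6 ± 3.08 FPKM), a ratio of 1.51. A cosine and sine of a 24-h period gave a peak-to-trough range of 0.51 (SE 0.093) on the log2(FPKM + 1) scale, larger than that of 86.9% of expressed genes, and a peak at ZT5.57 (SE 0.70 h).

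In Cry2 knockouts GOT1 was 94.4, 106.3, 86.7 and 101.9 FPKM in the male libraries of ZT4, ZT10, ZT16 and ZT22, and 94.8, 103.9, 87.7 and 97.3 FPKM in the female libraries. Male and female values were close to each other, and ZT16 was lowest in both series. In Clk knockouts the male libraries gave 71.4, 94.2, 97.7 and 95.8 FPKM and the female libraries 94.0, 108.7, 93.8 and 98.7 FPKM. The male ZT4 value was the lowest of all 8 and came from the library that stood apart; after scaling it was 90.9 FPKM.

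GABAR lies on scaffold DPSCF300002 from 1341374 to 1390274, a span of 48900 bases, and was expressed at a middling level, above 44.8% of expressed genes. A median of 307.5 reads per library stood behind its value, with an interval of 11.4% to either side, the widest of the 3 genes. In wild-type the receptor transcript was 14.5, 15.7, 17.1, 18.1, 18.0, 17.5, 14.7 and 12.8 FPKM in the male libraries from ZT1 to ZT22, and 13.4, 15.8, 16.3, 16.4, 16.0, 14.7, 14.6 and 12.3 FPKM in the female libraries. Both series were highest at ZT10 and lowest at ZT22, times that were picked from these same values. The means were 17.2 FPKM at ZT10 and 12.6 FPKM at ZT22 (n = 2 each), a ratio of 1.37, and the fitted range was 0.37 (SE 0.095) with a peak at ZT10.5 (SE 0.98 h).

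GABAR showed no such order in Cry2 knockouts, with 12.4, 16.5, 14.7 and 14.1 FPKM in the male libraries of ZT4, ZT10, ZT16 and ZT22 and 14.7, 13.2, 13.1 and 13.1 FPKM in the female libraries. The male series was highest at ZT10 and the female series at ZT4. In Clk knockouts the male libraries gave 9.7, 10.1, 15.7 and 14.2 FPKM and the female libraries 12.8, 14.7, 16.3 and 13.4 FPKM. Both series were lowest at ZT4 and highest at ZT16. After median-of-ratios scaling both were still highest at ZT16 (15.1 and 15.5 FPKM), while the lowest values were at ZT10 in males (10.7 FPKM) and at ZT22 in females (12.5 FPKM). The male and female libraries of ZT10 differed most, by more than their counting intervals.

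EaaT2 lies on scaffold DPSCF300018 from 272671 to 276257, a span of 3586 bases, and its level was above that of 91.5% of expressed genes. It had the most reads of the 3 genes, a median of 1369 per library, and an interval of 5.41% to either side. In wild-type the transporter transcript was 116.7, 120.6, 130.9, 134.9, 154.0, 132.5, 128.5 and 120.0 FPKM in the male libraries from ZT1 to ZT22, and 112.0, 112.2, 119.6, 117.7, 136.9, 135.3, 123.6 and 89.9 FPKM in the female libraries. Both series were highest at ZT13, the last sample of the light phase, and the male and female libraries of ZT22 were far apart. The mean was 145.5 ± 12.1 FPKM at ZT13 and 105.0 ± 21.3 FPKM at ZT22 (SD, n = 2 each), a ratio of 1.39, and the fitted range was 0.34 (SE 0.10) with a peak at ZT12.8 (SE 1.13 h). Leaving out each of the 32 libraries in turn kept this range between 0.27 and 0.39.

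EaaT2 had its lowest mean in Cry2 knockouts, and the values of its 4 times lay close together. Its male libraries of ZT4, ZT10, ZT16 and ZT22 gave 81.1, 83.8, 87.9 and 84.0 FPKM, and its female libraries 104.0, 87.0, 91.1 and 97.3 FPKM. In Clk knockouts the male libraries gave 104.6, 117.2, 147.1 and 152.6 FPKM and the female libraries 119.5, 151.5, 147.1 and 168.1 FPKM. Both series were highest at ZT22, where the wild-type libraries gave 120.0 FPKM (male) and 89.9 FPKM (female).

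**Figure D1:**
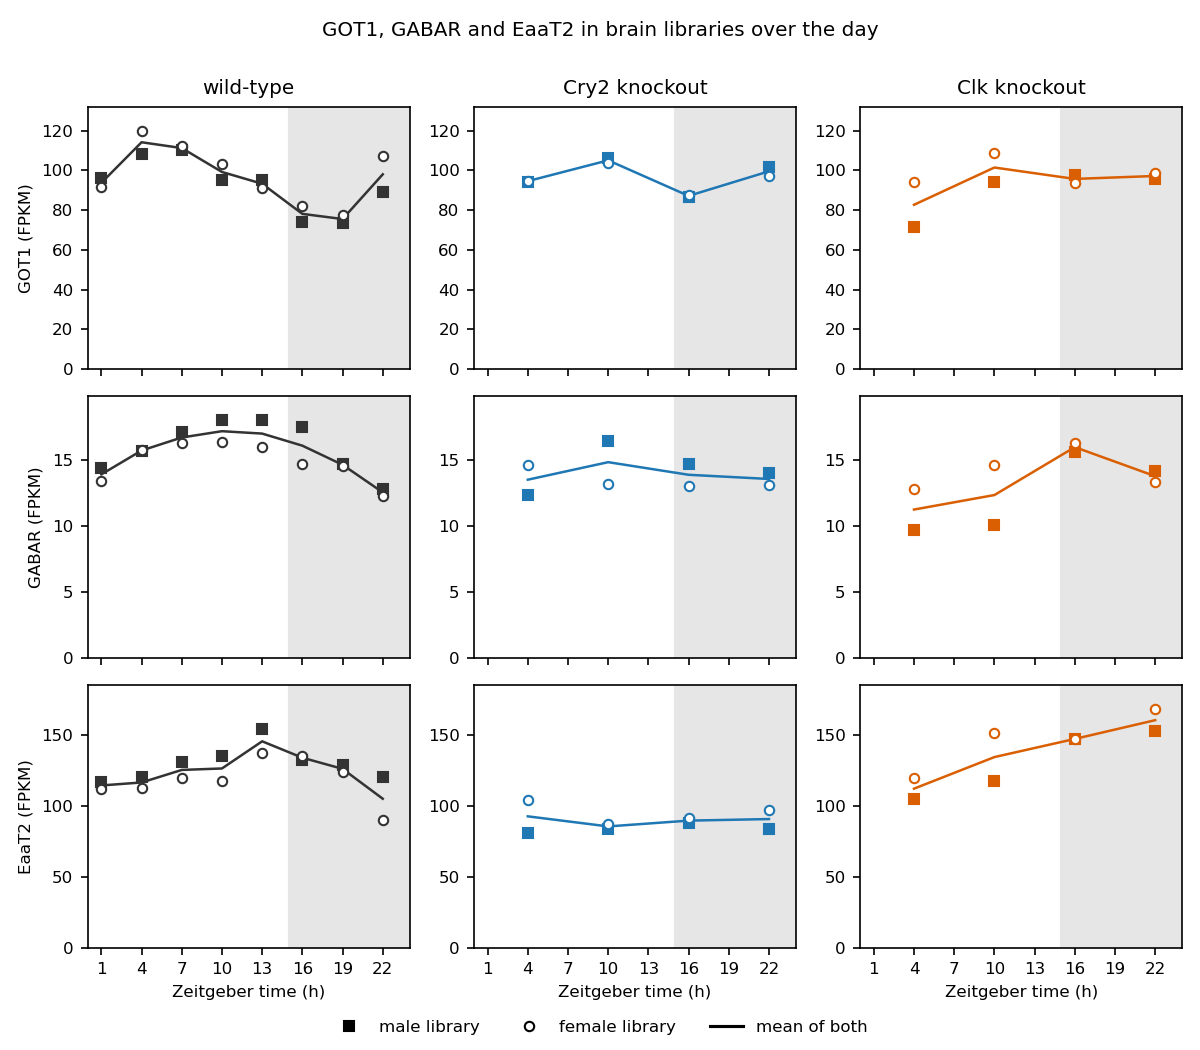
FPKM of GOT1, GABAR and EaaT2 (rows) against Zeitgeber time in hours in wild-type, Cry2 knockout and Clk knockout brains (columns); squares are male and circles female libraries, lines join the means of both, and grey marks the dark phase. EaaT2 of Cry2 knockouts lies between 81.1 and 104.0 FPKM at all times, while in Clk knockouts it reaches 168.1 FPKM at ZT22.

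Since FPKM are per length, the 3 transcripts can also be ordered within a genotype. In wild-type at the 4 shared times EaaT2 had a mean of 120.4 ± 15.0 FPKM, GOT1 97.4 ± 15.1 and GABAR 15.4 ± 2.04 (SD, n = 8), and the libraries of EaaT2 and GOT1 overlapped. In Cry2 knockouts the order of EaaT2 and GOT1 was the other way round, with means of 89.5 ± 7.72 and 96.6 ± 7.18 FPKM, which differed by less than their spread. In Clk knockouts EaaT2 was at 138.5 ± 21.9 and GOT1 at 94.3 ± 10.4 FPKM, and the lowest EaaT2 library (104.6) was below the highest GOT1 library (108.7). GABAR was the lowest of the 3 in every library.

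Each knockout was set against wild-type in the mean over ZT4, ZT10, ZT16 and ZT22 to see whether loss of a clock factor moved the level of these transcripts apart from its timing. EaaT2 fell in Cry2 knockouts, with 81.1 to 104.0 FPKM (median 87.5) against 89.9 to 135.3 FPKM (median 120.3) in wild-type. The difference was -0.42 (SE 0.071) on the log2(FPKM + 1) scale, 0.749 times the wild-type level (limma, adjusted p = 0.000792), and 7 of the 8 Cry2 knockout libraries were below the wild-type library of the same time and sex, the female library of ZT22 being the exception. EaaT2 was the 1 of the 3 genes called in this comparison, in which 12.9% of all expressed genes were called and 11.1% were called lower. The difference was lower than this in 6.48% of expressed genes. Within males the means were 84.2 ± 2.83 FPKM in Cry2 knockouts and 127.0 ± 7.77 in wild-type, and within females 94.9 ± 7.42 and 113.8 ± 18.7 FPKM (SD, n = 4 each). Over both sexes the libraries of the 2 genotypes overlapped. In 2.33% of expressed genes all Cry2 knockout libraries were below all wild-type libraries of the shared times. The decrease was -0.33 after median-of-ratios scaling (adjusted p = 0.00123) and between -0.47 and -0.37 when each library was left out in turn, called each time.

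GOT1 and GABAR did not pass the test in Cry2 knockouts. The GOT1 difference was 0.0005 (SE 0.056, adjusted p = 0.998), with libraries of 86.7 to 106.3 FPKM (median 96.1) against 74.2 to 119.9 FPKM (median 99.2) in wild-type. The GABAR difference was -0.13 (SE 0.075, adjusted p = 0.272), with 12.4 to 16.5 FPKM (median 13.7) against 12.3 to 18.1 FPKM (median 15.7).

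In Clk knockouts none of the 3 genes was called in the mean level, where 9.92% of expressed genes were called and 27.1% had an unadjusted p under 0.05. EaaT2 was 104.6 to 168.1 FPKM (median 147.1), a difference from wild-type of 0.19 (SE 0.071, adjusted p = 0.0887). After median-of-ratios scaling the difference was 0.26 and passed the test (adjusted p = 0.00971), likewise without the low male ZT4 library after that scaling (0.25, adjusted p = 0.0218). GABAR was 9.7 to 16.3 FPKM (median 13.8), a difference of -0.20 (SE 0.075, adjusted p = 0.0947), and GOT1 71.4 to 108.7 FPKM (median 95), a difference of -0.04 (SE 0.056, adjusted p = 0.687). The unadjusted p was 0.0136 for EaaT2 and 0.0152 for GABAR.

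The knockouts were also set against each other in the mean level. EaaT2 was higher in Clk knockouts than in Cry2 knockouts by 0.61 (SE 0.071), 1.53 times the level (limma, adjusted p = 3.1e-05). All 8 Clk knockout libraries were above all 8 Cry2 knockout libraries, a separation in this direction that 0.365% of expressed genes showed, although the gap was narrow, between 104.0 FPKM in a female Cry2 knockout library and 104.6 FPKM in the male Clk knockout library of ZT4. In this contrast 4.02% of expressed genes were called and 2.44% were called higher, and 97.3% had a lower value than EaaT2. Without the male ZT4 library of Clk knockouts the difference was 0.64, and after scaling 0.60. GOT1 (-0.04, SE 0.056, adjusted p = 0.811) and GABAR (-0.07, SE 0.075, adjusted p = 0.702) did not pass.

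**Figure D2:**
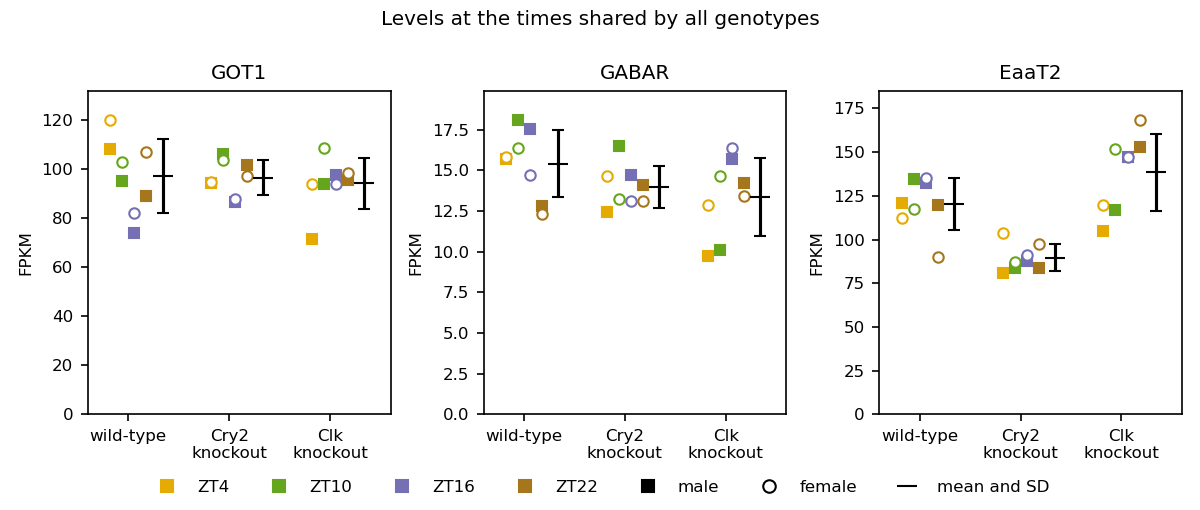
FPKM of GOT1, GABAR and EaaT2 at ZT4, ZT10, ZT16 and ZT22 (colours) in the 8 libraries of each genotype; squares are male and circles female libraries, and the bars give the mean and SD of the 8. The EaaT2 libraries of Clk knockouts (104.6 to 168.1 FPKM) lie above those of Cry2 knockouts (81.1 to 104.0 FPKM), while GOT1 and GABAR overlap between all genotypes.

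Marker and vision genes were read beside these levels, all of them picked as rhythmic by the study in these wild-type libraries. Their values were not scaled between libraries, and those of Clk knockouts include the low male ZT4 library. The summed level of the 3 glia markers had a median of 857 FPKM (641 to 994) in wild-type, 794 FPKM (761 to 858) in Cry2 knockouts and 686 FPKM (462 to 767) in Clk knockouts, an order that EaaT2 did not follow. In Cry2 knockouts 1 of the 3 fell, e (DPOGS202434), by 0.57 (adjusted p = 0.00663), and none rose, where 11.1% of expressed genes fell and 1.78% rose. In Clk knockouts 2 fell, e (DPOGS210257) by 0.33 (adjusted p = 0.0278) and Mdr65, a transporter of the Drosophila blood-brain barrier, by 0.43 (adjusted p = 0.0315), and none rose. There 8.06% of expressed genes fell and 1.86% rose. Mdr65 was also lower in Clk than in Cry2 knockouts (-0.58, adjusted p = 0.00896), where EaaT2 was higher and 1.58% of expressed genes were called lower. The 3 markers differed in this. For e (DPOGS202434) the means of single times were 104.2 to 125.7 FPKM in Cry2 knockouts and 121.1 to 164.8 FPKM in Clk knockouts. For e (DPOGS210257) they were 216.1 to 305.5 and 180.1 to 258.4 FPKM. The sum weighs most the markers of highest level, Mdr65 and e (DPOGS210257).

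Of the 3 vision genes ninaB moved with EaaT2 in 2 of the 3 comparisons. ninaB, an enzyme that makes the precursor of the visual chromophore in Drosophila, fell by 0.62 in Cry2 knockouts (adjusted p = 0.00026) and was higher in Clk than in Cry2 knockouts by 0.45 (adjusted p = 0.00615), while against wild-type it lay at -0.16 in Clk knockouts (adjusted p = 0.27), opposite in sign to EaaT2. The vision gene sev was lower in Clk knockouts (-0.34, adjusted p = 0.0016) and lower in Clk than in Cry2 knockouts (-0.36, adjusted p = 0.0012), and Pdh was called in neither knockout. The summed level of the 3 vision genes had medians of 78.0 FPKM in wild-type, 68.7 FPKM in Cry2 knockouts and 68.3 FPKM in Clk knockouts. Among the 4 neuron markers fusl fell in both knockouts (-0.33, adjusted p = 0.00309, and -0.40, adjusted p = 0.00105), and cac, VGlut and Nplp1 did not pass. Only 5 to 40 reads per library stood behind cac, so that its missing call says little. The part of these genes in the EaaT2 differences was not tested.

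The differences were then taken at each of the 4 times, with 2 libraries against 2. EaaT2 of Clk knockouts at ZT22 was the only one of the 24 differences to pass, with 152.6 and 168.1 FPKM against 120.0 and 89.9 FPKM in wild-type, a rise of 0.62 (SE 0.143, adjusted p = 0.0364). At that time and in that knockout 1.71% of expressed genes were called in either direction and 0.788% were called higher. The 2 wild-type libraries of ZT22 differed in other genes too. Mdh1 and Ssadh, read below, were at 277.4 and 77.7 FPKM in the male library and at 169.4 and 49.0 FPKM in the female. By contrast wake was at 12.9 FPKM in the male and 20.1 FPKM in the female. In Clk knockouts 23.7% of expressed genes had an unadjusted p under 0.05 (limma) at ZT22, against 6.38% to 19.3% at the other times. In Cry2 knockouts these were 27.4% and 7.56% to 10.4%. The EaaT2 call rests on few libraries. Without the low female wild-type library the difference was 0.41 (adjusted p = 0.428), without the male wild-type library 0.83 (adjusted p = 0.000517), and without either Clk knockout library of ZT22 it also failed (adjusted p = 0.104 and 0.217). At the other times the EaaT2 difference of Clk knockouts was -0.06 at ZT4, 0.08 at ZT10 and 0.14 at ZT16, and the first of these turned to 0.17 after median-of-ratios scaling. Of all expressed genes 0.231% were called at ZT10 and 0.259% at ZT16.

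The EaaT2 difference of Cry2 knockouts was -0.34 (SE 0.143, adjusted p = 0.568) at ZT4, -0.56 (adjusted p = 0.106) at ZT10, -0.58 (adjusted p = 0.0784) at ZT16 and -0.20 (adjusted p = 0.371) at ZT22. It was negative at all 4 times and called at none of them. Of all expressed genes 0.202%, 0.471%, 0.624% and 4.13% were called in Cry2 knockouts at these times.

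GOT1 came closest to the threshold in Clk knockouts at ZT4, the time of its wild-type maximum, with 71.4 and 94.0 FPKM against 108.4 and 119.9 FPKM. The difference was -0.47 (SE 0.113, adjusted p = 0.0584), where 0.653% of expressed genes were called and the median gene lay at -0.20. It was -0.28 without the low male library (adjusted p = 0.578) and -0.25 after scaling (adjusted p = 0.556). It was called in 5 of 32 fits that left out 1 library, at -0.67 without the female Clk knockout library of ZT4 (adjusted p = 0.00367) and at -0.47 without either wild-type library of ZT22 or either Clk knockout library of ZT10 (adjusted p = 0.0223 to 0.0463). At ZT16, when wild-type GOT1 was low, the difference in Clk knockouts was 0.29 (adjusted p = 0.549), and in Cry2 knockouts the differences were -0.27 at ZT4 and 0.16 at ZT16 (adjusted p = 0.568 and 0.688). GABAR of Clk knockouts lay at -0.46 at ZT4 (SE 0.151, adjusted p = 0.133) and at -0.47 at ZT10 (adjusted p = 0.339), with 10.1 and 14.7 FPKM at ZT10 against 18.1 and 16.4 FPKM in wild-type. At ZT16 and ZT22 the GABAR differences of both knockouts were between -0.20 and 0.12.

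**Figure D3:**
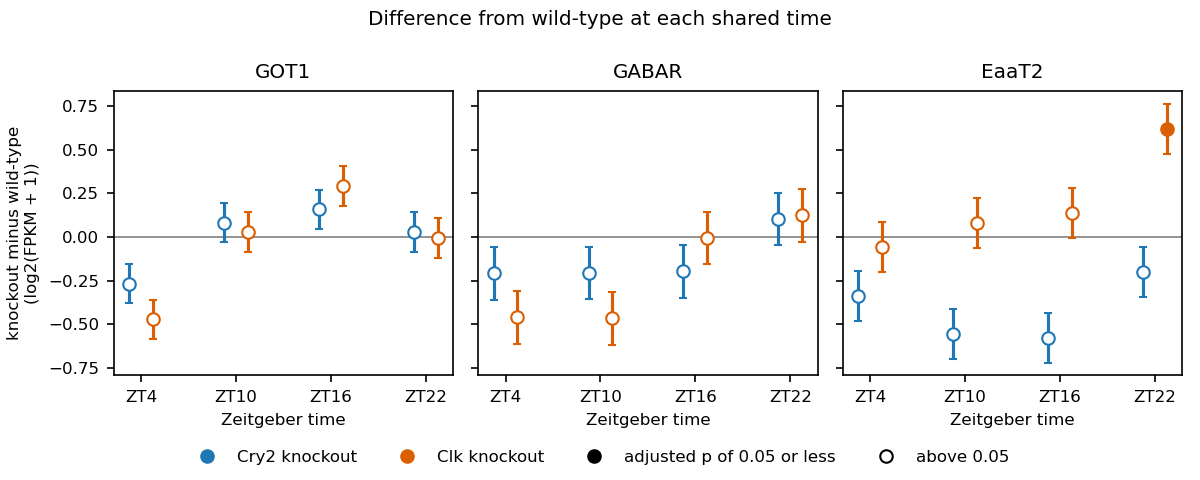
Difference from wild-type in log2(FPKM + 1) of GOT1, GABAR and EaaT2 at each shared time in Cry2 knockouts and Clk knockouts; points are estimates from 2 libraries against 2, bars give the standard error, and filled points have an adjusted p of 0.05 or less. The single filled point is EaaT2 of Clk knockouts at ZT22 (0.62), and EaaT2 of Cry2 knockouts lies below 0 at all 4 times.

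The time courses of the knockouts were fitted with the same 24-h cosine and sine, from 4 times and 8 libraries each. In Cry2 knockouts the fitted ranges were small, 0.14 (SE 0.13) for GOT1, 0.12 (SE 0.13) for GABAR and 0.09 (SE 0.14) for EaaT2, against a median of 0.19 over all expressed genes. None of the 3 was called (limma, adjusted p = 1 for each). With limma 0 of 10412 genes (0%) passed in Cry2 knockouts, 242 having an unadjusted p under 0.05, and 0 (0%) passed in Clk knockouts, 1693 having an unadjusted p under 0.05, so that a missing call does not show a missing rhythm.

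In Clk knockouts GABAR had a range of 0.51 (SE 0.13, unadjusted p = 0.0033, adjusted p = 0.19) with a peak at ZT17.3 (SE 1.01 h), and EaaT2 one of 0.47 (SE 0.14, unadjusted p = 0.0102, adjusted p = 0.222) with a peak at ZT18.3 (SE 1.15 h). GOT1 had a range of 0.23 (SE 0.13, adjusted p = 0.53). The median range of all expressed genes was 0.34 in this genotype and 0.20 in wild-type. Beside the low male ZT4 library, the median gene was shifted by -0.11 in the female ZT4 and by -0.12 in the male ZT10 library. In the other Clk knockout libraries the shift was -0.02 to 0.05. The part of these shifts in the median range was not tested. After median-of-ratios scaling the ranges were 0.25 for GABAR, 0.24 for EaaT2 and 0.13 for GOT1, and without the male ZT4 library 0.39, 0.36 and 0.058. Leaving out the female library of ZT10 instead gave ranges of 0.59 for GABAR and 0.62 for EaaT2 that were called (adjusted p = 0.041 and 0.0448). The peaks after scaling were at ZT17.8 (SE 1.70 h) for GABAR and ZT20.1 (SE 1.92 h) for EaaT2. The fitted peaks of GABAR and EaaT2 in Clk knockouts stayed between ZT15.6 and ZT18.4 and between ZT17.3 and ZT19.4 when each library was left out, later than in wild-type, where they stayed between ZT9.99 and ZT10.7 and between ZT12.4 and ZT13.7. With 4 times in the knockouts against 8 in wild-type, the peaks are descriptions. Nor are they particular to these genes. In Clk knockouts GOT1 had its fitted peak at ZT15.0. Of genes read below, VGlut, Ssadh, Mdh1, P5cr-2 and wake had theirs at ZT15.1, ZT14.5, ZT15.5, ZT15.0 and ZT18.2, and NKCC at ZT2.75. Leaving out 1 library does not remove shifts that several libraries share.

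Differential time courses, the test of the difference in the cosine and sine terms, did not pass for any of the 3 genes when adjusted over all expressed genes. Libraries of all 3 genotypes had served in the study's choice of genes by time course, so that these comparisons are not independent of it. The study used another test, DODR, which was not run here. With it the study reported disrupted rhythms of GOT1 and EaaT2 in both knockouts. For GABAR it reported significance in Clk but not in Cry2 knockouts. Against wild-type in Clk knockouts, GOT1 had an unadjusted p of 0.000782 (adjusted p = 0.118), GABAR of 0.0012 (adjusted p = 0.139) and EaaT2 of 0.0159 (adjusted p = 0.401), where 0.327% of expressed genes were called and 10.1% had an unadjusted p under 0.05. The range of GOT1 was smaller than in wild-type by 0.28 (SE 0.161), while the ranges of GABAR and EaaT2 were larger by 0.14 and 0.13, differences that turned to -0.10 and -0.07 after median-of-ratios scaling. Against wild-type in Cry2 knockouts all 3 ranges were smaller, by 0.37 (GOT1), 0.25 (GABAR) and 0.25 (EaaT2), with unadjusted p of 0.0869, 0.315 and 0.0689 and an adjusted p of 0.995 for each, where 0.144% of expressed genes were called. Both comparisons share the wild-type libraries. Between Clk and Cry2 knockouts GABAR had an unadjusted p of 0.0356 (adjusted p = 0.679), EaaT2 of 0.0878 and GOT1 of 0.212, and limma called 0 of 10412 genes (0%), 746 having an unadjusted p under 0.05.

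None of the 3 genes was called between female and male libraries over all genotypes, where 3.57% of expressed genes were called and 15.9% had an unadjusted p under 0.05. The female minus male difference was 0.07 (SE 0.037, adjusted p = 0.356) for GOT1, higher in the female library in 11 of 16 pairs of the same genotype and time. It was -0.015 (SE 0.054, adjusted p = 0.929) for GABAR, higher in the female library in 5 of 16 pairs, and 0.017 (SE 0.051, adjusted p = 0.913) for EaaT2, higher in 9 of 16. For none of the 3 genes was the sign the same in all genotypes. In wild-type, Cry2 and Clk knockouts the difference was 0.08, -0.02 and 0.15 for GOT1 and -0.09, -0.08 and 0.21 for GABAR, none of them called. In wild-type the male library of EaaT2 was higher at 7 of 8 times (-0.14, SE 0.053, adjusted p = 0.204, with 2.45% of expressed genes called), ZT16 being the exception. In each knockout the female library of EaaT2 was higher at 4 of 4 times, by 0.17 (SE 0.075, adjusted p = 0.897, with 0.115% called) in Cry2 knockouts and by 0.17 (SE 0.075, adjusted p = 0.274, with 0.499% called) in Clk knockouts, although at ZT16 both Clk knockout libraries were at 147.1 FPKM. In Clk knockouts the median gene was itself higher in females by 0.13. After median-of-ratios scaling the EaaT2 difference in Clk knockouts was 0.04 (adjusted p = 0.994) with the female library higher at 2 of 4 times, while in Cry2 knockouts it was 0.18 (adjusted p = 0.523) with 4 of 4 and in wild-type -0.12 (adjusted p = 0.158) with 1 of 8. The difference in the female minus male value between genotypes had an unadjusted p of 0.00339 and an adjusted p of 0.404 for EaaT2. These were 0.0415 and 0.49 for GABAR and 0.277 and 0.624 for GOT1. With limma 0 of 10412 genes (0%) passed this test, 1042 having an unadjusted p under 0.05.

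A further 6 genes of glutamate, GABA and linked amino acid or chloride handling, all picked as rhythmic by the study in these wild-type libraries, were read in the same fits. In Cry2 knockouts 1 of the 6 fell and 0 rose in the mean level (limma), where 11.1% of all expressed genes fell and 1.78% rose. In Clk knockouts 1 rose and 0 fell, where 1.86% rose and 8.06% fell. Between Clk and Cry2 knockouts 1 was higher and 0 lower, where 2.44% were higher and 1.58% lower. The median difference of the 6 was -0.0033, -0.05 and -0.08 in these comparisons, against -0.08, -0.06 and 0.02 over all expressed genes. The 1 gene called was the same in the 3 comparisons. P5cr-2 (DPOGS215437), for an enzyme of proline synthesis, a pathway that starts from glutamate, was 64.8 to 109.9 FPKM (median 77.7) in Cry2 knockouts, 63.4 to 121.7 (median 101.2) in wild-type and 89.2 to 147.2 (median 121.8) in Clk knockouts. It fell by 0.29 in Cry2 knockouts (adjusted p = 0.0272), rose by 0.31 in Clk knockouts (adjusted p = 0.0246) and was higher in Clk than in Cry2 knockouts by 0.61 (SE 0.084, adjusted p = 0.000191). After median-of-ratios scaling its Cry2 knockout difference was -0.21 and no longer called (adjusted p = 0.119), and with additive terms for genotype and time its rise in Clk knockouts was not called (adjusted p = 0.0765). Of 32 fits that left out 1 library each, the Cry2 knockout call held in 25 and the Clk knockout call in 26 (adjusted p up to 0.0762 and 0.0744 in the others). P5cr-2 thus had the order of EaaT2 in its medians, lowest in Cry2 knockouts and highest in Clk knockouts.

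The other genes of the list did not pass in the mean level. Mdh1 (DPOGS200490), malate dehydrogenase, which works with GOT1 in the malate-aspartate shuttle, was 287.6 to 324.2 FPKM in Cry2 knockouts and 169.4 to 317.1 FPKM in wild-type, a difference of 0.20 (adjusted p = 0.0798) that passed after scaling (0.28, adjusted p = 0.00891). At ZT22 it was higher in Cry2 knockouts by 0.56 (adjusted p = 0.0422), and the call held in 8 of 32 fits that left out 1 library each (0.21 without the female and 0.91 without the male wild-type library of ZT22). VGlut (DPOGS208578), which loads glutamate into synaptic vesicles and was also read as a neuron marker, had medians of 105.8, 102.0 and 102.8 FPKM in wild-type, Cry2 and Clk knockouts. Ssadh (DPOGS209167), an enzyme of GABA breakdown, had medians of 75.2, 66.5 and 67.3 FPKM. NKCC (DPOGS208044), a carrier that loads cells with chloride, had medians of 20.8, 21.7 and 16.4 FPKM, and wake (DPOGS210801), whose Drosophila namesake acts on GABA-A receptors, 11.9, 12.8 and 11.8 FPKM.

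**Figure D4:**
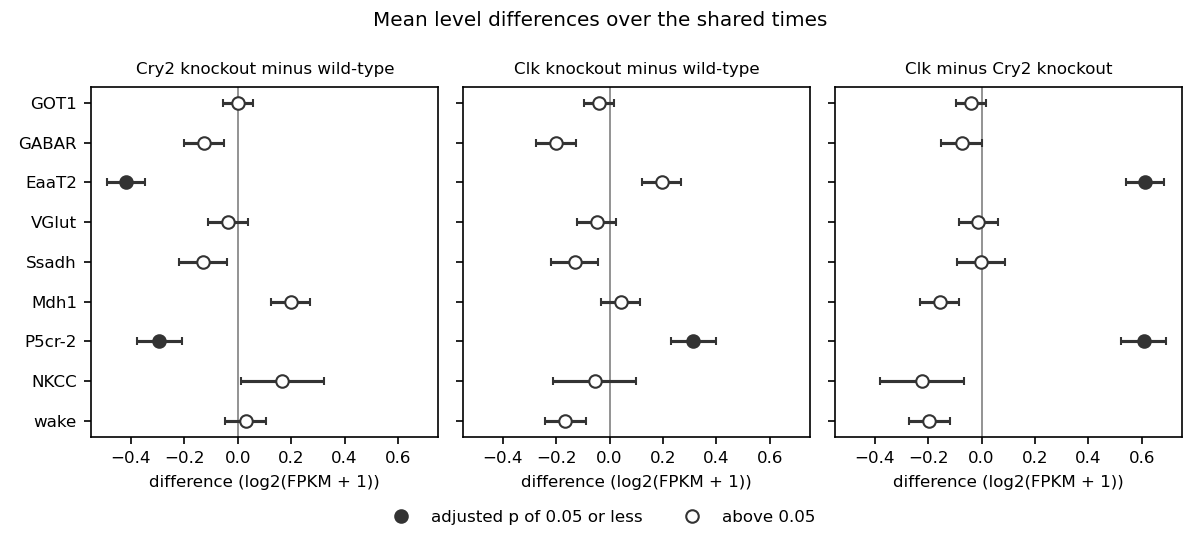
Differences in mean level over the 4 shared times, in log2(FPKM + 1), for GOT1, GABAR and EaaT2 and the 6 further genes in the 3 comparisons of genotypes; bars give the standard error and filled points have an adjusted p of 0.05 or less. EaaT2 and P5cr-2 are filled below 0 in Cry2 knockouts and above 0 between Clk and Cry2 knockouts, where EaaT2 reaches 0.61.

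The 3 transcripts did not move as one over the 32 libraries. On scaled values Pearson's r was -0.02 between GOT1 and GABAR, -0.33 between GOT1 and EaaT2 and 0.11 between GABAR and EaaT2, and over the 16 wild-type libraries 0.13, -0.39 and 0.68. These are descriptions, since libraries of a genotype share its level and its times. Among 7098 genes with a mean of at least 10 FPKM, the genes most like GOT1 over the 32 libraries were Pfk (DPOGS203810, r = 0.85), phosphofructokinase of glycolysis, CG10527 (DPOGS201446, r = 0.82) and Pgi (DPOGS210295, r = 0.81), phosphoglucose isomerase of the same pathway. Those most like EaaT2 were DPOGS213252 (r = 0.82), CG8602 (DPOGS203710, r = 0.81) and CG5150 (DPOGS200817, r = 0.77). Those most like GABAR had lower values, DPOGS203173 (r = 0.67), DPOGS215410 (r = 0.67) and E(spl)mbeta-HLH (DPOGS200691, r = 0.65), the last named for a Notch target of Drosophila.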

How the data were processed

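Polyadenylated RNA of 3 pooled brains per library was sequenced as 50-base single-end reads. The authors mapped them with TopHat2 to assembly v3, keeping 1 alignment a read, and deposited FPKM per gene and library from Cufflinks with a 95% interval; their methods call the unit RPKM. FPKM are not counts, so no count model was used, and read numbers were worked out from the interval's width. Libraries were not scaled further in the main analysis.

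After log2(FPKM + 1) transformation all 32 libraries were fitted together in limma 3.58.1 (R 4.3.3), with moderated statistics and an intensity trend. P-values were Benjamini-Hochberg adjusted over the 10412 expressed genes within each comparison and called at 0.05 or less. Levels and sex used genotype-by-time groups, and time courses 1 pair of 24-h cosine and sine terms per genotype. The scripts were tested on simulated data. The labels do not say whether replicates came from separate cultures or broods. P-values measure the spread between these libraries, which are separate male and female pools of brains. For levels and time courses that spread includes any difference between the sexes.

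The genes and lists were chosen with earlier results of these data known. Named were the 3 genes, 6 listed genes, Cry2, the markers and, per gene, the 3 with the highest r. A further gene of the list is not reported here. Alternatives were a pseudocount of 0.1, other filters, median-of-ratios and quantile scaling, no trend, a replicate block, other time models and leaving out each library. No sequence is shown, since none of the gene identifiers matched the reference table. Figures were drawn with matplotlib 3.10.9.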

Additional observations from a re-analysis of the deposited data

Results flagged for a closer look

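GOT1 in the male Clk knockout library of ZT4 was 71.4 FPKM, far below the other 7 Clk knockout libraries, with a gap to the nearest of them of 0.60 of the whole range, past Dixon's 95% critical value for 8 samples. The same gene was 90.9 FPKM in that library after median-of-ratios scaling, and the median of all genes in it lay 0.35 below its wild-type mean (log2). This was 1 flag in 6 groups of 8 libraries looked at, and chance flags about 1 in 20 such groups.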

How the results depend on the processing

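The fall of EaaT2 in Cry2 knockouts and its higher level in Clk than in Cry2 knockouts kept their direction and their call under every alternative run, including leaving out each library. Median-of-ratios scaling, quantile normalization and scaling without the male Clk knockout library of ZT4, the last chosen after seeing the data, changed these Clk knockout results, given in that order. The EaaT2 level against wild-type was 0.2606, 0.2748 and 0.2511 and was called. The sign turned for the GOT1 level (0.0266, 0.0342 and 0.0423), for EaaT2 at ZT4 (0.1671, 0.1548 and 0.1289), and for the difference in time course from wild-type of GABAR (-0.1009, -0.0971 and -0.0957) and EaaT2 (-0.0726, -0.0780 and -0.0739). Under the first pair of these it also turned for the GOT1 time course of Clk against Cry2 knockouts (-0.0060 and -0.0400) and for EaaT2 in female minus male libraries (-0.0045 and -0.0125), and under quantile normalization for GOT1 at ZT22 in Clk knockouts (0.0574). None of these reversed values was called in any of the settings named here. For time courses the values are differences in range, and the test was that of the cosine and sine terms. The cause was not tested.

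Libraries of the same replicate number, which are of the same sex, deviated together little over all genes (mean correlation 0.0347 over 120 pairs of groups, 14 of them over 0.1). The main fits did not pair them. They still share a sex, and 3.57% of expressed genes were called between female and male libraries. With a replicate block 1 of 56 calls changed, GOT1 of Clk knockouts at ZT4 (-0.4716, adjusted p = 0.0345).

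With each library left out in turn, the mean level against wild-type ranged from -0.0326 to 0.0336 for GOT1 of Cry2 knockouts, from -0.0882 to 0.0096 for GOT1 of Clk knockouts, from -0.2636 to -0.1391 for GABAR of Clk knockouts (called without the female library of ZT4 or of ZT10) and from 0.1429 to 0.2461 for EaaT2 of Clk knockouts (called without the male wild-type library of ZT22). GOT1 between Clk and Cry2 knockouts ranged from -0.0887 to 0.0091. In Clk knockouts the difference at ZT4 ranged from -0.6673 to -0.2759 for GOT1, from -0.6448 to -0.2751 for GABAR and from -0.1520 to 0.0382 for EaaT2. At ZT10 it ranged from -0.0733 to 0.1318 for GOT1, from -0.7142 to -0.2162 for GABAR and from -0.1043 to 0.2639 for EaaT2, at ZT16 from -0.1227 to 0.1132 for GABAR, and at ZT22 from -0.1385 to 0.1263 for GOT1 and from 0.4135 to 0.8262 for EaaT2. In Cry2 knockouts EaaT2 ranged from -0.5161 to -0.1602 at ZT4, from -0.6527 to -0.4584 at ZT10, from -0.6006 to -0.5502 at ZT16 (the values of ZT10 and ZT16 were each called in 2 of 32 fits, those without the male or the female wild-type library of ZT22) and from -0.4050 to 0.0077 at ZT22, and GOT1 from -0.1047 to 0.1601 at ZT22. The time course range in Clk knockouts lay between 0.3888 and 0.6681 for GABAR and between 0.3582 and 0.6247 for EaaT2. The difference of this range from wild-type lay between 0.0164 and 0.2957 for GABAR and between -0.4535 and -0.1926 for GOT1. For GOT1 between the knockouts it lay between -0.0824 and 0.1785. The test against wild-type is of the cosine and sine terms, not of the range. It was called for GABAR without the female Clk knockout library of ZT10, and for GOT1 without that library or the female wild-type library of ZT22. Female minus male ranged from -0.0492 to 0.0040 for GABAR and from -0.0063 to 0.0458 for EaaT2. GABAR had as few as 225 reads in a library, and each group and time 2 libraries, which limits what could be detected at single times.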
